A study of Mus musculus with 4 samples.

Results

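The transcripts described here encode 10 proteins that drive the divisions of germ cells: the A-type cyclins Ccna1 and Ccna2, the B-type cyclins Ccnb1 and Ccnb2, the E-type cyclins Ccne1 and Ccne2, the kinases Cdk1, Cdk2 and Plk1, and the phosphatase Cdc25c. They were taken by symbol from a fixed list of names, and all 10 were found among the 22552 gene symbols of each table. RNA of adult mouse testes was sequenced in 2 Fam46c knockout (KO) libraries and 2 wild-type (WT) libraries. All 4 came from adult males of the background DBA/C57 F1. FAM46C belongs to the noncanonical poly(A) polymerases, which lengthen the adenosine tail of RNA, and the genotypes were compared to identify genes that it regulates in the testis. The sources used here give neither the part of Fam46c that was altered nor whether each library is a separate animal. The p-values below therefore reflect spread between libraries that could be technical replicates.

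Cyclins are the regulatory subunits of cyclin-dependent kinases (CDKs). The A-type, B-type and E-type cyclins each rise and are destroyed in their own part of the cell cycle. In the testis spermatogonia divide by mitosis, while spermatocytes pass through a long meiotic prophase and then divide without an intervening round of DNA synthesis. Cyclin A1 is the germ cell form of cyclin A, found in late spermatocytes, and male mice without it are sterile because their spermatocytes do not enter the first meiotic division. Cyclin A2 is the general form, used in DNA synthesis and mitosis.

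Levels are FPKM, fragments counted per kilobase of transcript and scaled for library depth, so values of different genes are per length and can be set side by side. Ratios between genes still depend on the transcript lengths used, and the sources used here name no gene annotation. Total FPKM was 528756 and 489702 in KO replicates 1 and 2, against 498299 and 497141 in WT replicates 1 and 2. From the steps that whole fragments leave in low FPKM values, the libraries held roughly 16700000 and 19300000 fragments (KO) and 19300000 and 21300000 (WT). At that depth, and with the longest coding transcript of each gene, Ccna1 rested on roughly 1850 to 3050 fragments in a library and Ccne1, the member with the fewest, on roughly 99.4 to 123, a counting error of 9.03% to 10%. Markers of spermatocytes and spermatids were present in every library: 10 spermatocyte genes summed to 4037 and 3865 FPKM in KO and 3853 and 3788 in WT, and 10 spermatid genes to 68560 and 55390 in KO and 47680 and 61990 in WT. Fam46c itself was at 130.5 and 129.9 FPKM in KO and at 236 and 133.8 in WT (log2 difference -0.45, SE 0.21, limma adjusted p = 1). The difference ran from -0.85 to -0.04 with 1 WT library left out. Its transcript level therefore does not check the genotype labels.

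Of the A-type cyclins, the germ cell form stood far above the general one. Ccna1 was at 94.0 and 55.8 FPKM in KO replicates 1 and 2, against 64.2 and 83.1 in WT replicates 1 and 2. Both WT values lay between the KO values, and the largest of the 4 was in KO replicate 1 and the smallest in KO replicate 2. Ccna2 was at 3.53 and 2.37 FPKM in KO, against 3.44 and 1.93 in WT. Its replicates 1 were the higher ones in both genotypes, and the genotypes overlapped. The level of Ccna1 was 26.6 and 23.6 times that of Ccna2 within the KO libraries and 18.7 and 43.0 times within the WT libraries. Ccna1 therefore made up 96.4% and 95.9% of the summed FPKM of both A-type cyclins in KO, and 94.9% and 97.7% in WT. Among all symbols, Ccna1 ranked 1078th and 1660th by level in the KO libraries and 1525th and 1139th in the WT libraries.

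The B-type cyclins, which activate CDK1 for entry into division, were also unequal in level. Ccnb2, which mice can do without, was at 114.1 and 87.3 FPKM in KO, against 113.3 and 101 in WT. Ccnb1, which is essential for the embryo, was at 4.76 and 3.16 FPKM in KO, against 4.33 and 4.18 in WT. For both genes the WT libraries lay between the KO libraries, with KO replicate 1 the highest. Ccnb2 was 24.0 and 27.6 times Ccnb1 within the KO libraries and 26.2 and 24.2 times within the WT libraries. On the log2 scale the SD of this ratio was 0.15 in KO and 0.08 in WT, and that of the A-type ratio was 0.13 in KO and 0.85 in WT.

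The E-type cyclins, partners of CDK2 that also serve in male meiosis, differed less. Ccne2 was at 8.27 and 10.9 FPKM in KO, against 11.0 and 9.23 in WT, and the genotypes overlapped. Ccne1 was at 2.98 and 2.92 FPKM in KO, against 3.18 and 2.74 in WT, and here the KO libraries lay between the WT ones. Ccne2 was 2.78 and 3.75 times Ccne1 in KO and 3.47 and 3.37 times in WT.

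The kinases and the phosphatase lay between Ccna1 and Ccnb1 in mean level. Plk1, the polo-like kinase of spindle assembly and of the exit from meiotic prophase, was at 44.0 and 29.2 FPKM in KO, against 36.6 and 37.8 in WT, with both WT values between those of KO. Cdk2, which is needed in meiotic prophase and without which mice are sterile, was at 23.8 and 29.1 FPKM in KO, against 22.8 and 25.2 in WT, where the genotypes overlapped. Cdk1, the kinase of entry into division, was at 11.7 and 8.95 FPKM in KO, against 10.2 and 9.92 in WT, again with WT between the KO values. Cdk2 exceeded Cdk1 by 2.03 and 3.25 times in KO and by 2.23 and 2.54 times in WT. Cdc25c, a phosphatase that removes inhibitory phosphates from CDK1, was at 7.20 and 5.87 FPKM in KO, against 8.64 and 7.80 in WT. It was the 1 member whose KO libraries both lay below both WT libraries.

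By the mean of the 4 libraries the order of levels was Ccnb2, Ccna1, Plk1, Cdk2, Cdk1, Ccne2, Cdc25c, Ccnb1, Ccne1 and Ccna2. Neighbours in this order whose ranges over the 4 libraries did not overlap were Ccna1 and Plk1, Plk1 and Cdk2, Cdk2 and Cdk1, and Cdc25c and Ccnb1. Ranges overlapped between Ccnb2 and Ccna1, Cdk1 and Ccne2, Ccne2 and Cdc25c, Ccnb1 and Ccne1, and Ccne1 and Ccna2. Within every library, however, Ccnb2 stood above Ccna1, Ccne2 above Cdc25c and Ccnb1 above Ccne1. Ccna1 was at 0.824 and 0.639 of Ccnb2 in KO and at 0.567 and 0.823 in WT. The order of Cdk1 and Ccne2, and that of Ccne1 and Ccna2, differed between libraries and is not settled by them.

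**Figure D1:**
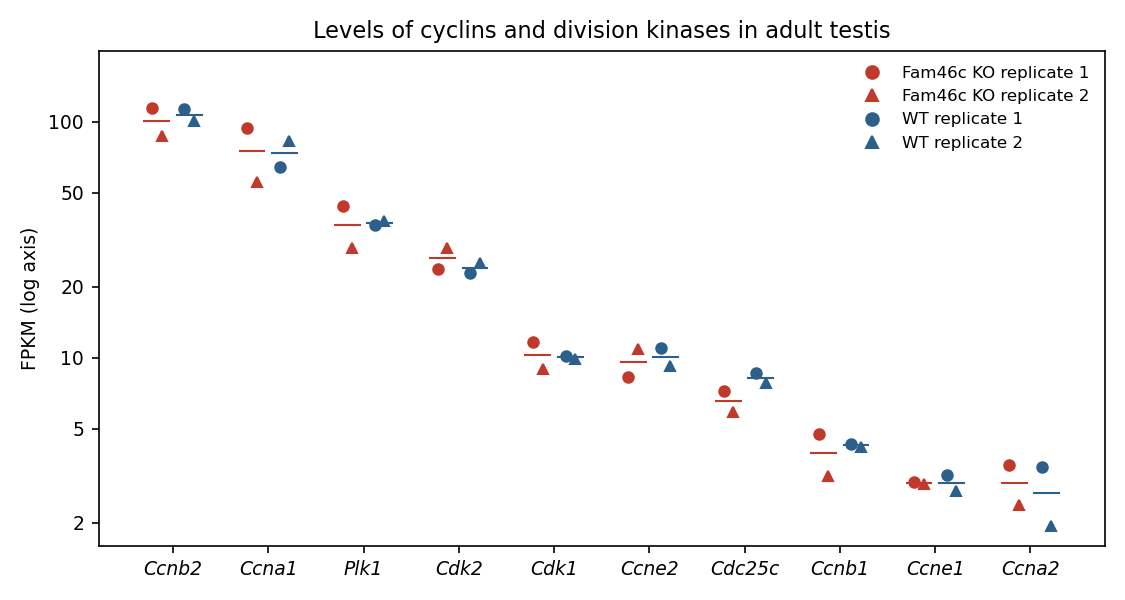
FPKM of the 10 transcripts on a log axis, ordered by their mean over the 4 libraries, with Fam46c KO left of WT. Circles are replicate 1, triangles replicate 2, and short bars the mean of each genotype (n = 2 each). Ccnb2 and Ccna1 lie highest, with Ccna1 at 94.0 and 55.8 FPKM in KO and 64.2 and 83.1 in WT.

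The germ cell cyclin Ccna1 was set against the mitotic cyclins within each library, and the ratio compared between KO and WT testes. Ccna1 divided by the sum of Ccna2, Ccnb1 and Ccnb2 was 0.768 and 0.601 in KO, against 0.531 and 0.776 in WT. The KO libraries lay between the WT libraries. The difference in the log2 ratio was 0.08, smaller than the SD of 0.25 among the KO libraries and of 0.39 among the WT libraries (exact two-sided permutation p = 1, where 2 libraries against 2 cannot give less than 0.333). Most of this denominator is Ccnb2, and bulk testis does not show whether its transcript came from mitotic or meiotic cells. Against Ccna2 alone the log2 difference was -0.18, and against Ccna2 and Ccnb1 together it was 0.01. Of 8 such ratios compared, none separated the genotypes, and the exact permutation p adjusted over the 8 was 1 for each. A ratio within a library does not depend on how the library was scaled.

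**Figure D2:**
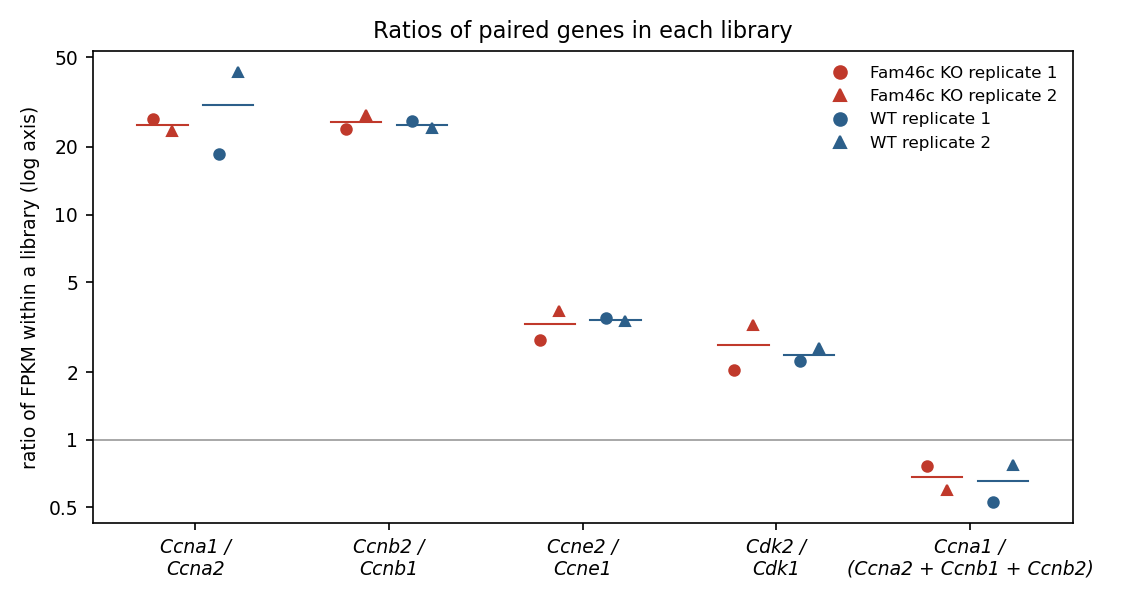
Ratios of FPKM between related genes within each library, on a log axis, with Fam46c KO left of WT. Circles are replicate 1, triangles replicate 2, short bars the mean of each genotype, and the grey line marks equal levels. The widest spread within a genotype is that of Ccna1 to Ccna2 in WT, at 18.7 and 43.0.

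None of the 10 transcripts was called different between Fam46c KO and WT testes. Limma was fitted on log2(FPKM + 1) over 12258 symbols that averaged 1 FPKM or more, all 10 members among them, and called 0 of the 10 at a Benjamini-Hochberg adjusted p under 0.05, against 0.114% of all genes tested. At an unadjusted p under 0.05 the count was also 0 of 10, against 2.02% of all genes, and 0 of 10 stood at least 2-fold apart without overlap, against 0.245%. The limma adjusted p was 1 for each. Cdc25c had the largest difference, with 6.53 ± 0.943 FPKM in KO and 8.22 ± 0.589 in WT (SD, n = 2 each). Its log2 difference was -0.30 (SE 0.16, limma adjusted p = 1). Groups that did not overlap, with KO lower, made up 10.6% of all genes tested, so 1 of 10 members is close to that background. With KO higher they made up 9.47%, and 0 of the 10 members stood so.

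The intervals show what size of change these libraries leave possible. Ccna1 averaged 74.9 ± 27.0 FPKM in KO and 73.7 ± 13.4 in WT, a log2 difference of -0.01 with a 95% interval of -0.48 to 0.45. On the FPKM + 1 scale this is a change of -28.1% to 36.9%. Without KO replicate 1 the Ccna1 estimate was -0.38, and without KO replicate 2 it was 0.36. For Ccna2 (2.95 ± 0.821 FPKM in KO and 2.69 ± 1.06 in WT) the interval was -0.36 to 0.59. For Ccnb1 it was -0.50 to 0.29, and for Ccnb2 -0.43 to 0.23. The E-type cyclins had intervals of -0.35 to 0.34 for Ccne1 and -0.44 to 0.29 for Ccne2. For the kinases they were -0.32 to 0.37 for Cdk1, -0.19 to 0.45 for Cdk2 and -0.43 to 0.33 for Plk1, and that of Cdc25c was -0.64 to 0.05. Every interval therefore excluded a doubling and a halving on the FPKM + 1 scale. The scale understates the change of low genes such as Ccna2, Ccne1 and Ccnb1. These are bulk samples, in which fewer cells of a type and less RNA per cell cannot be told apart.

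**Figure D3:**
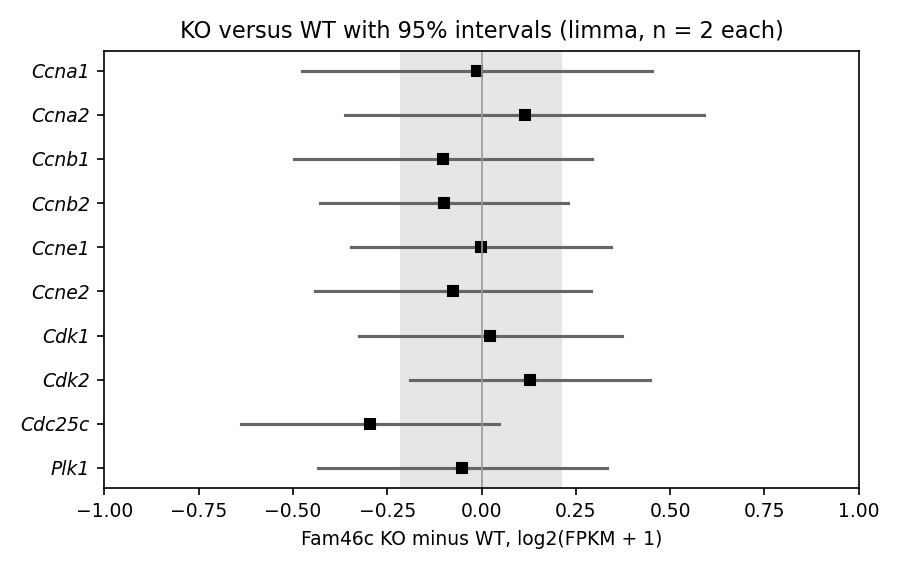
Difference between Fam46c KO and WT in log2(FPKM + 1) for each of the 10 transcripts. Squares are the limma estimate, lines its 95% interval (n = 2 libraries each), and the grey band runs from the 5th to the 95th percentile of the estimates of all 12258 genes, -0.21 to 0.21. All 10 intervals include 0, and the estimate of Cdc25c, at -0.30, is the 1 outside the band.

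For 9 of the 10 members, all but Cdc25c, the KO libraries lay further apart from each other than the genotype means did, which held for 71.9% of all genes tested. Of the 10, 8 were higher in KO replicate 1 than in KO replicate 2, against 53.7% of all genes tested, and the median log2 difference between these libraries was 0.37 for the members and 0.02 for all genes. Ccna1 had the largest difference, 1.69-fold in FPKM (log2 0.74). Of the 5680 tested genes with a mean of at least 10 FPKM, 0.986% differed by more than Ccna1 between the KO libraries. Ccnb1 followed with 1.51-fold, Plk1 with 1.50-fold and Ccna2 with 1.49-fold, then Ccnb2 and Cdk1 with 1.31-fold each and Cdc25c with 1.23-fold. The exceptions with higher values in KO replicate 2 were Ccne2 and Cdk2, where replicate 1 was at 0.756 and 0.819 of replicate 2. Ccne1 was nearly equal in the KO libraries, at 1.02-fold. Roughly 2700 and 1850 fragments stood behind Ccna1 in KO replicates 1 and 2, a counting error of 1.93% and 2.32%. Spread between libraries includes more than counting error.

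For 5 members, Ccna1, Ccnb1, Ccnb2, Cdk1 and Plk1, both WT libraries lay between the KO libraries, with KO replicate 1 the highest in each. Of all genes tested, 24.9% had both WT libraries between the KO libraries in either order. With KO replicate 1 the highest, 1781 of the 12258 did. Between the WT libraries 7 of the 10 were higher in replicate 1, against 65.3% of all genes tested. Ccna1 was higher in WT replicate 2 by 0.37 on the log2 scale, Ccna2 higher in WT replicate 1 by 0.60, and the replicates of Cdk1 and of Ccnb1 differed by 0.04 each. The median difference over the 10 was 0.09, near the 0.07 of all genes. Markers of some other cells differed beside this, between the KO libraries, between the genotypes or both. The 7 Leydig cell markers summed to 634.8 and 308.4 FPKM in KO replicates 1 and 2, against 1276 and 1378 in WT, and 1 of the 6 tested was called lower by limma. The 6 blood markers summed to 12.6 and 8.73 FPKM in KO, against 50.6 and 40.7 in WT, and 2 of the 4 tested were called lower. Over all genes tested, 0.114% were called in either direction. Spermatogonial markers, 8 in number, summed to 61.8 and 74.2 FPKM in KO, against 69.1 and 59.9 in WT, and the spermatid sums are given above. Sertoli cell markers summed to 596 and 587.6 FPKM in KO, against 717.4 and 545.5 in WT. Those of peritubular and endothelial cells summed to 40.2 and 38.2 in KO, against 44.8 and 36.1 in WT. For macrophages the sums were 11.0 and 14.5 in KO, against 23.8 and 14.3 in WT. In the Sertoli, peritubular and endothelial, and macrophage sums the genotypes overlapped. None of the markers in these lists was at 0 in all libraries, and their part in the difference was not tested.

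**Figure D4:**
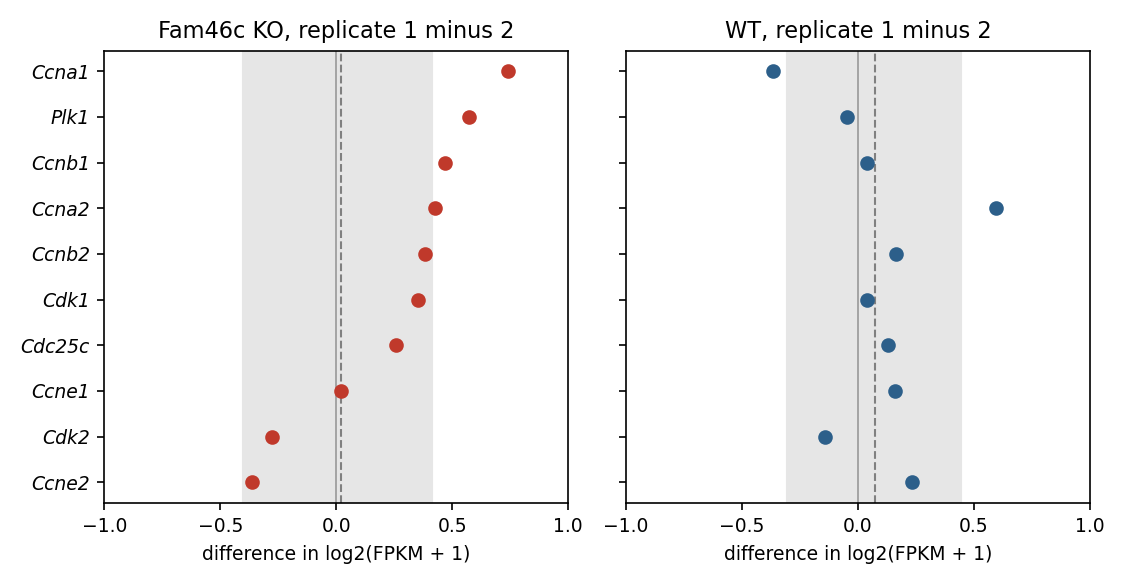
Difference between replicate 1 and replicate 2 in log2(FPKM + 1) for each transcript, within Fam46c KO (left) and within WT (right). Grey bands run from the 5th to the 95th percentile of all 12258 genes and dashed lines their median, at 0.02 in KO and 0.07 in WT. In KO, Ccna1 (0.74), Plk1, Ccnb1 and Ccna2 lie beyond the band, and in WT, Ccna1 and Ccna2 lie beyond it on opposite sides.

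The bases before the start site are shown for the germ cell cyclin and, beside it, for the B-type cyclins and their kinase, to set the letters of a germ cell gene beside those of general cell cycle genes. They were not tested against any difference between libraries. RefSeq start sites (build GRCm38.p6) were matched by symbol for 7 members, all but Ccna2, Ccne2 and Cdc25c. The 250 bases before the start are given 5′ to 3′ on the strand of the gene. They lie at chr3:55055056-55055305 for Ccna1, chr13:100786487-100786736 for Ccnb1, chr9:70421555-70421804 for Ccnb2 and chr10:69352913-69353162 for Cdk1, all on the minus strand. Capitals mark 3 kinds of word, searched on both strands, so that the reverse complement is in capitals too. The CCAAT box is CCAAT. The core of the cell cycle homology region is TTTGAA. The words of MYB factors are CAACNG, where N is any base, or the same with T as its first base.
Ccna1: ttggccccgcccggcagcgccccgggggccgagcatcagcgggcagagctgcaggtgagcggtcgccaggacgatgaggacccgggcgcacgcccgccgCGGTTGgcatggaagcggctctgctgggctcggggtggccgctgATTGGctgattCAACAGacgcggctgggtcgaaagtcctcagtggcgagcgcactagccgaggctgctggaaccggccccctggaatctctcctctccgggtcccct
Ccnb1: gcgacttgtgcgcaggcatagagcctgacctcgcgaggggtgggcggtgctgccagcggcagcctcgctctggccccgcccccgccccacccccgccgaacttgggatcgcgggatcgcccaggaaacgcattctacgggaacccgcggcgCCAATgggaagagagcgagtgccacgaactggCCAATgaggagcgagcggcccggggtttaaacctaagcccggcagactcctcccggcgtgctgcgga
Ccnb2: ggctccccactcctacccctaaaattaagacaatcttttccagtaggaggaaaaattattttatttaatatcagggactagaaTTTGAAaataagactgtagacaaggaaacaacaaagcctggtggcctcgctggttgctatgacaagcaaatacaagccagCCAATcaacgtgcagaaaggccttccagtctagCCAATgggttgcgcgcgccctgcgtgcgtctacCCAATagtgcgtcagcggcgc
Cdk1: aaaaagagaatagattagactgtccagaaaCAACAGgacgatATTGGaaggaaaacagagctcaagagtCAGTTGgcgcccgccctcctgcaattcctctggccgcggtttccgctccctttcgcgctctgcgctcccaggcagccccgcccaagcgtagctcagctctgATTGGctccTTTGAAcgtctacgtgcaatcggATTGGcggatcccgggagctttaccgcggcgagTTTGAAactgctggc
In the windows from 250 bases before to 50 after the start, the CCAAT box, which NF-Y binds, matched in 6 of the 7 members, against 37.4% of all 32851 windows of this length. The exception was Ccne1. The cell cycle homology core, known from genes of late cell cycle, matched in 3 of 7, Ccnb2, Cdk1 and Plk1, against 17.9% of all windows. The MYB words matched in Ccna1, Ccnb1 and Cdk1, against 49.7% of all windows. The GC box GGGCGG is not in capitals and matched in 7 of 7, against 35.7%. The cAMP response element, searched as TGACGTCA, matched in 0 of 7, against 1.79%. No matches of different motifs overlapped. The background windows were not limited to genes expressed in testis, so these shares do not set the members apart from other expressed genes.

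CCAAT boxes stood at a like spacing in Ccnb1, Ccnb2 and Cdk1. Their first bases were 32 bases apart in Ccnb1, 33 and 33 apart in Ccnb2, and 32 apart for the pair nearest the start in Cdk1. Pairs on the same strand spaced 31 to 34 bases occurred in these 3 of 7 members and in 0.895% of all windows, a range chosen after the sequences were seen. Ccna1 held 1 CCAAT box, on the other strand 107 bases before its start, and the MYB words stood 151 and 96 bases before it. A match describes letters in this window and not binding, which was not measured.

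Among all genes, those with a pattern over the 4 libraries most like Ccna1 were found by the root mean square difference of centred log2(FPKM + 1). The 5 nearest of 5675 other genes with a mean of at least 10 FPKM were Ciapin1 (difference 0.01), Slc22a21 (0.03), Rhcg (0.06), Rfx8 (0.06) and Aurka (0.06). Aurka, a kinase of the spindle poles, was at 80.8 and 47.4 FPKM in KO, against 60.1 and 70.0 in WT. Like Ccna1 it was highest in KO replicate 1 and lowest in KO replicate 2. Of the members, Plk1 was nearest to Ccna1 (0.13) and Ccne2 farthest (0.45). With 4 libraries many genes fall into the same order, so these distances are a description.

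In the rest of the division machinery limma called no gene. Of 95 tested genes in 7 lists, 0 had an adjusted p under 0.05, against 0.114% of all genes tested, and 1 had an unadjusted p under 0.05, against 2.02%. Both KO libraries lay below both WT libraries for 10 of the 95 and above them for 6, against 10.6% and 9.47% of all genes. The median log2 difference was 0.00 over these 95 genes, -0.03 over the 10 members and -0.01 over all 12258 genes.

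Among CDKs and their partners (11 tested, 5 with higher and 6 with lower estimates in KO), Cks2, a CDK-binding subunit that mice need to leave the first meiotic metaphase, was the gene under an unadjusted p of 0.05. Cks2 was at 25.1 and 24.9 FPKM in KO, against 20.3 and 19.5 in WT, and both KO libraries stood above both WT libraries. Its log2 difference was 0.31 (SE 0.13, limma adjusted p = 1). Hspa2, the germ cell chaperone needed for assembly of CDK1 with cyclin B, was at 437.7 and 413.3 FPKM in KO, against 486.3 and 439.2 in WT. The CDK2 activator Spdya was at 56.6 and 47.0 FPKM in KO and 51.6 and 49.9 in WT, and Cdk16 had a log2 difference of -0.14.

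CDK inhibitors and genes of phosphatase control (17 tested, 8 higher and 9 lower) were led in level by Cdkn3, a phosphatase of CDK2, at 116.5 and 103.2 FPKM in KO and 115.7 and 107.8 in WT. The phosphatase subunit Ppp2r2d had a log2 difference of -0.09. The CDK4 and CDK6 inhibitor Cdkn2b had one of -0.35 (2.13 and 3.41 FPKM in KO, against 3.83 and 3.67 in WT, limma adjusted p = 1), and Arpp19, an inhibitor of that phosphatase, one of 0.15. Of the other cyclins (16 tested, 3 higher and 13 lower), Ccnk, a partner of transcriptional CDKs, was at 231.3 and 223.6 FPKM in KO and 226.4 and 226 in WT. Ccni, Ccng1 and Ccno had log2 differences of -0.07, -0.20 and -0.17.

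The polo and Aurora kinases with their partners (9 tested, 6 higher and 3 lower between genotypes) included Aurka at -0.07, Birc5, a subunit of the Aurora B complex, at 0.06, Tpx2, an activator of Aurora A, at 0.15, and Plk4, the kinase of centriole duplication, at -0.13. For the spindle checkpoint (9 tested, 2 higher and 7 lower), Bub3 was at 22.7 and 21.5 FPKM in KO, against 25.1 and 24.7 in WT. The checkpoint kinase Ttk was at 20.1 and 16.6 in KO, against 20.6 and 21.4 in WT. Both KO libraries lay below both WT libraries for 4 of these 9 genes, against 10.6% of all genes tested. This was the highest count among the 7 lists, followed by 3 of 16 for the other cyclins, and no test compared them. The smallest adjusted p in limma for the spindle checkpoint was 1. For the anaphase-promoting complex and its regulators (20 tested, 13 higher and 7 lower), both KO libraries lay below both WT libraries for 0 genes. They lay above them for 3, against 9.47% of all genes tested. Log2 differences were 0.04 for Anapc13, 0.01 for the conjugating enzyme Ube2s, 0.17 for Anapc10 and -0.13 for the activator Cdc20. DNA replication and proliferation genes (13 tested, 11 higher and 2 lower) gave -0.02 for Mcm7, 0.01 for Top2a, 0.15 for Gmnn and 0.17 for Cdt1.

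**Figure D5:**
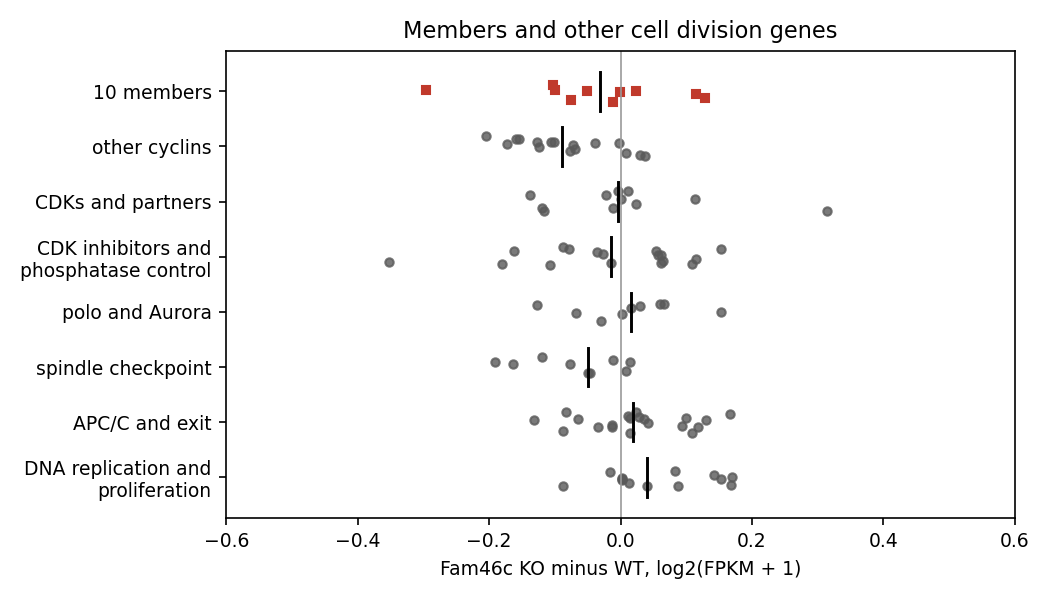
Difference between Fam46c KO and WT in log2(FPKM + 1) for the 10 members (red squares) and for the 95 tested genes of the 7 other lists (grey circles). Vertical bars are the median of each list, and vertical jitter carries no value. The members run from -0.30 to 0.13, and the medians of the other lists from -0.09 to 0.04.

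Between the KO libraries, 59 of the 95 list genes were higher in replicate 1, against 53.7% of all genes tested. No test compared the lists. Of the polo and Aurora genes 8 of 9 were higher in KO replicate 1 than in KO replicate 2, with a median log2 difference of 0.36, and of the CDKs and partners 11 of 11, with a median of 0.19. The corresponding counts were 6 of 9 for the spindle checkpoint, 14 of 20 for the anaphase-promoting complex, 5 of 13 for the replication and proliferation genes, 7 of 16 for the other cyclins (median -0.05) and 8 of 17 for CDK inhibitors and phosphatase control (median -0.02). Of the tested markers, 6 of 6 Leydig cell, 4 of 4 blood and 6 of 10 spermatocyte genes were higher in KO replicate 1. So were 6 of 10 spermatid, 4 of 7 Sertoli cell and 3 of 5 peritubular and endothelial genes. The counts were 1 of 3 for macrophages and 0 of 5 for spermatogonia.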

How the data were processed

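RNA of adult mouse testes was measured in 2 Fam46c KO and 2 WT libraries. The deposited values are FPKM per gene symbol, per the file headers, with 1 table per library. Named without a role are Cufflinks 2.0.2, TopHat2 2.0.6, Cuffdiff and the build mm9, per the submitters' processing notes. The sources used here name no gene annotation, strand setting or filter. FPKM of symbols on more than 1 row were summed (728 rows, none of them a member's).

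Symbols that averaged 1 FPKM or more (12258) were tested on log2(FPKM + 1) in limma 3.58.1 under R 4.3.3, with genotype as the only term and variances moderated with an intensity trend (2 residual and 9.48 prior degrees of freedom). P-values are two-sided with Benjamini-Hochberg adjustment over all symbols tested. The fit was tested on simulated data. Ratios within a library were compared by exact permutation over the libraries. Total fragments were estimated from 372 genes with a single GENCODE M21 transcript, and WT replicate 2 came to 21300000, or 23600000 with 200 bases taken off each length. Counting errors drawn from it cover counting only.

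The members, the lists and the tests were chosen with earlier results of these data known. Named genes were the 10 members and, from each pathway list, the 2 tested genes of highest mean FPKM and the 2 of smallest p. Pseudocounts, filters, scalings, variance model, left-out libraries and a replicate block were tried as alternatives. Start site sequences are from RefSeq, build GRCm38.p6, and carry no coordinates over to mm9.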

Additional observations from a re-analysis of the deposited data

How the results depend on the processing

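Limma called 0 of the 10 members in all 12 alternatives. The count over all genes, 14, was 2 with no filter, 9 with a mean of at least 5 FPKM, 7 after scaling to equal totals, 6 after median scaling and 68 with the replicate number as a block. It ranged from 9 (without KO replicate 2) to 21 with 1 library left out, where the lone library of a genotype is assumed to vary like the other genotype. The cause was not tested, except that a higher minimum leaves fewer genes. Ccna2, Ccnb1 and Ccne1 were not tested at a mean of at least 5 FPKM. The labels number the replicates of both genotypes without saying that a number is shared. Deviations of same-numbered libraries correlated at -0.03 across genes, which cannot decide whether such libraries were prepared together. The block called 0 members.

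With all libraries, near-zero log2 differences changed sign for Cdk1 (-0.0059), Ccnk (-0.024), Spdya (-0.0082), Ube2s (-0.017) and Top2a (-0.018) after scaling to equal totals and for Ccne1 (0.0063) after median scaling. With 1 library left out, 13 of 40 estimates of members changed sign. The log2 differences ranged from -0.38 to 0.36 for Ccna1, -0.18 to 0.41 for Ccna2, -0.34 to 0.13 for Ccnb1, -0.29 to 0.092 for Ccnb2, -0.081 to 0.079 for Ccne1, -0.26 to 0.11 for Ccne2, -0.15 to 0.20 for Cdk1, -0.0097 to 0.27 for Cdk2, -0.42 to -0.17 for Cdc25c and -0.34 to 0.24 for Plk1. Among the other named genes the sign changed within ranges of -0.016 to 0.032 for Ccnk, -0.17 to 0.033 for Ccni, -0.11 to 0.15 for Spdya, -0.11 to 0.060 for Cdkn3, -0.18 to 0.0043 for Ppp2r2d, -0.45 to 0.31 for Aurka, -0.12 to 0.24 for Birc5, -0.043 to 0.13 for Anapc13, -0.10 to 0.13 for Ube2s, -0.15 to 0.11 for Mcm7 and -0.029 to 0.056 for Top2a. Without a change of sign, the estimate moved by over 1.5 times within -0.32 to -0.021 for Ccno, -0.29 to -0.12 for Ccng1, -0.19 to -0.046 for Hspa2, -0.26 to -0.010 for Cdk16, -0.60 to -0.11 for Cdkn2b, -0.32 to -0.059 for Ttk, -0.26 to -0.0087 for Cdc20, -0.17 to -0.082 for Plk4, 0.042 to 0.26 for Arpp19, 0.027 to 0.28 for Tpx2, 0.052 to 0.25 for Gmnn and 0.056 to 0.28 for Cdt1. Cks2, Bub3 and Anapc10 moved by less. The log2 ratio of Ccna1 to the mitotic cyclins ranged from -0.19 to 0.36. With 2 libraries per genotype, and about 100 fragments for the lowest member, changes within the intervals could not be detected.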
